A study of Homo sapiens with 3 samples.

Results

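The genes described are 10 integrin subunits that epithelial cells use to hold on to their surroundings: the alpha subunits ITGA2, ITGA3, ITGA5, ITGA6 and ITGAV and the beta subunits ITGB1, ITGB3, ITGB4, ITGB6 and ITGB8. They were found by symbol among the 56632 gene IDs of each table, 1 ID for each symbol, and ITGB3 had a single row. The genes were chosen by name with earlier results of these libraries known, and ITGB3 was selected on its low value in the inhibitor library. Its difference between that library and the others is therefore given as a description and supports nothing. All 10 genes reached 1 CPM, a read count scaled to library size, in at least 1 library.

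An integrin is a pair of 1 alpha and 1 beta subunit that spans the cell membrane, binds matrix proteins outside and connects to the cytoskeleton inside. In breast and other stratified or glandular epithelia, alpha 6 beta 4 anchors basal cells to laminin in the hemidesmosome, and alpha 3 beta 1 and alpha 2 beta 1 bind laminin and collagen. Alpha 5 beta 1 and the alpha v integrins bind fibronectin and other ligands that carry the short peptide motif RGD, and alpha v beta 6 and alpha v beta 8 release active TGF-beta from its latent complex. Beta 3, paired with alpha v, is best known from endothelial cells, osteoclasts and invasive tumour cells, and paired with alpha IIb it is the fibrinogen receptor of platelets.

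The cells were MCF10Ca1h, an established tumour-forming line of the human MCF10 breast epithelial series, grown in medium with horse serum in all groups. The untreated library (NT) had no time given in the labels, the GSK484 library came from cells given that PADI4 inhibitor for 72 h, and the CON library from cells given the control compound for 72 h. PADI4 is an enzyme that converts arginine in histones and other proteins to citrulline. The labels' treatment text calls the control compound GSK107 and the deposited table GSK106, and doses were not given. Each group had 1 library, so no difference below was tested, none could be set against replicate spread, and every interval covers counting error only.

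Total expected counts were between 70555229 and 92980847 per library. Of 8 epithelial markers, all were measured in every library, with a summed level of 10078 to 11112 TPM. None of the 6 platelet markers reached 1 CPM, GP9 had a TPM of 0 in all 3 libraries, and their summed level was 0.40 to 1.04 TPM. The 6 matched endothelial markers summed to 0.66 to 0.87 TPM, with TIE1 at 0 in every library. Of 7 macrophage and osteoclast markers, PTPRC, TYROBP and CALCR were at 0 in every library, and the list summed to 4.36 to 5.06 TPM. Its measured members were CD68, which ranged from 3.57 to 4.1 CPM, and CTSK, which ranged from 1.23 to 1.42 CPM. Of 10 fibroblast and smooth muscle markers, COL3A1, DCN and LUM were at 0 throughout, and the sum was 6.57 to 7.31 TPM. In that list THY1 (8.17 to 8.91 CPM) and COL1A1 (5.87 to 7.58 CPM) were measured in every library. In bulk RNA, fewer cells carrying a transcript and less RNA per cell cannot be told apart.

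Levels between genes were compared in deposited TPM, which divides by the effective length estimated for each gene and so rests on that estimate. ITGB4, the hemidesmosome beta subunit, had the highest level of the 10 genes, at 1212 TPM in NT, 1462 in CON and 1541 in GSK484. That placed it at rank 137, 120 and 118 among the 13313 genes measured in at least 1 library. ITGA3, the laminin-binding partner of beta 1, followed at 541 TPM in NT, 516 in CON and 622 in GSK484. Together these genes, ITGB4 as 80.4% to 88.1% of the summed beta level and ITGA3 as 68.9% to 74.3% of the summed alpha level, made up most of the integrin transcript described here. ITGB1, the common beta subunit, was at 231 TPM in NT, 151 in CON and 192 in GSK484. ITGA6, which pairs with beta 4 or beta 1, was at 183 TPM in NT, 138 in CON and 171 in GSK484.

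ITGB6, the epithelial beta subunit that activates TGF-beta, was next at 61.6 TPM in NT, 43.7 in CON and 51.7 in GSK484. ITGA5, the fibronectin receptor alpha subunit, was at 25.5, 21.6 and 25.5 TPM in NT, CON and GSK484. The collagen receptor subunit ITGA2 was at 18.7 TPM in NT, 9.52 in CON and 12.8 in GSK484. ITGAV lay beside it at 16.2, 9.0 and 12.8 TPM in the same order, and the ranks of these neighbours, 6348 and 6343, almost met in GSK484. ITGB8, the other TGF-beta-activating beta subunit, was low at 2.61 TPM in NT, 1.47 in CON and 1.80 in GSK484. ITGB3 was the lowest of the 10 in every library, at 0.47 TPM in NT, 0.36 in CON and 0.18 in GSK484. In ITGA6, ITGAV and ITGB1 the expected count was not whole in at least 1 library, so some of their reads were divided with other genes. The other 7 genes had whole counts in all 3 libraries, within 0.005 of a count.

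**Figure D1:**
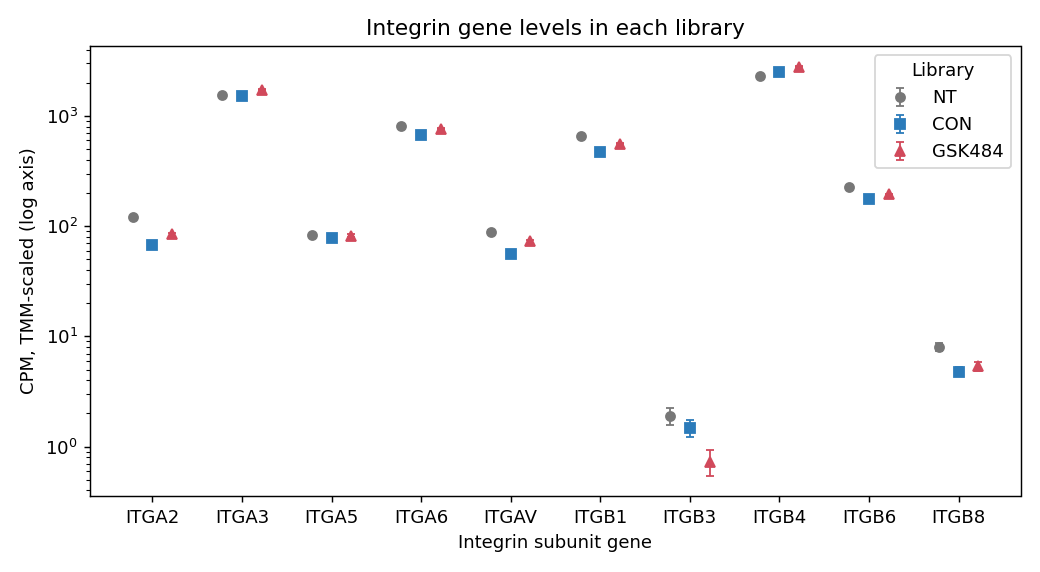
CPM scaled by TMM (log axis) of each integrin gene in the NT, CON and GSK484 libraries, 1 point per library, with 95% exact Poisson intervals for counting error. Levels run from 0.72 CPM for ITGB3 in GSK484 to 2809 CPM for ITGB4 in GSK484; CPM is not per length, so heights of different genes are not to be compared.

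ITGB3 (ENSG00000259207), the beta 3 chain, rested on few reads: 134 in NT, 134 in CON and 56 in GSK484. Scaled to library size this gave NT 1.88 CPM (95% exact Poisson interval 1.57 to 2.23), CON 1.47 (1.23 to 1.74) and GSK484 0.72 (0.544 to 0.935). The GSK484 interval lay below those of both other libraries, while the NT and CON intervals overlapped. Against CON the log2 fold was -1.02 (counting interval -1.50 to -0.57), or 2.03-fold lower, and against NT it was -1.38 (-1.86 to -0.92), or 2.59-fold lower. CON was 1.28-fold lower than NT (log2 fold -0.36, interval -0.713 to -0.000765), a bound almost at no difference. A gene is called lower or higher here where its fold was at least 2, its 95% interval excluded no difference and the larger CPM was at least 1. By that rule ITGB3 was the 1 of 10 integrin genes called in GSK484 against CON, where 0.258% of 13200 genes were called lower and 0.197% higher. It was also the 1 called in GSK484 against NT, where 0.28% of 13210 genes were called lower and 0.273% higher. Both comparisons share the GSK484 library, and ITGB3 was picked for these folds. Scaling to total counts without TMM put the fold against CON at 1.98, just short of the minimum of 2, and the deposited TPM put it at 2.0.

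The effective length of ITGB3, an estimate that depends on the transcripts assigned and on fragment size, was 4706 bases in NT, 4717 in GSK484 and 4374 in CON. A shorter effective length gives more TPM for the same count, and the longest was 1.08 times the shortest. ITGA2B, the alpha IIb partner of beta 3 in platelets, stayed under 1 CPM, with 0.435 for NT, 0.438 for CON and 0.334 for GSK484, and the interval of its log2 fold for GSK484 against CON, -1.16 to 0.36, included no difference. CDH5, a cadherin of endothelial junctions and the 1 endothelial marker measured, stood at 1.57 CPM in CON, above 0.967 in NT and 0.939 in GSK484. Its log2 fold was -0.73 for GSK484 against CON and -0.04 for GSK484 against NT. The part of CDH5 or of other lineage markers in the ITGB3 values was not tested.

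For the other 9 genes GSK484 was on the higher side of CON in every case. For scale, the median absolute log2 fold over all genes was 0.112 in this comparison. ITGAV, the shared alpha subunit of the RGD receptors, had 56.0 CPM in CON and 72.7 in GSK484 (log2 fold 0.38, interval 0.32 to 0.43). ITGA2 had 67.5 CPM in CON and 84.2 in GSK484 (log2 fold 0.32, interval 0.27 to 0.37). ITGB1 was at a log2 fold of 0.24, ITGA3 and ITGA6 at 0.20, ITGB4 at 0.18 and ITGB6 at 0.14, each beyond counting error. ITGA5 was at 0.07 (interval 0.02 to 0.12), and ITGB8 was within counting error (0.16, interval -0.04 to 0.36). In all, 8 of the 10 were higher and 1 lower beyond counting error, where 27.9% of all genes were higher and 26.4% lower. The median log2 fold of the 10 was 0.19, beside -0.00 over all genes. None but ITGB3 differed by as much as 1.5-fold: the next largest was ITGAV at 1.30-fold.

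**Figure D2:**
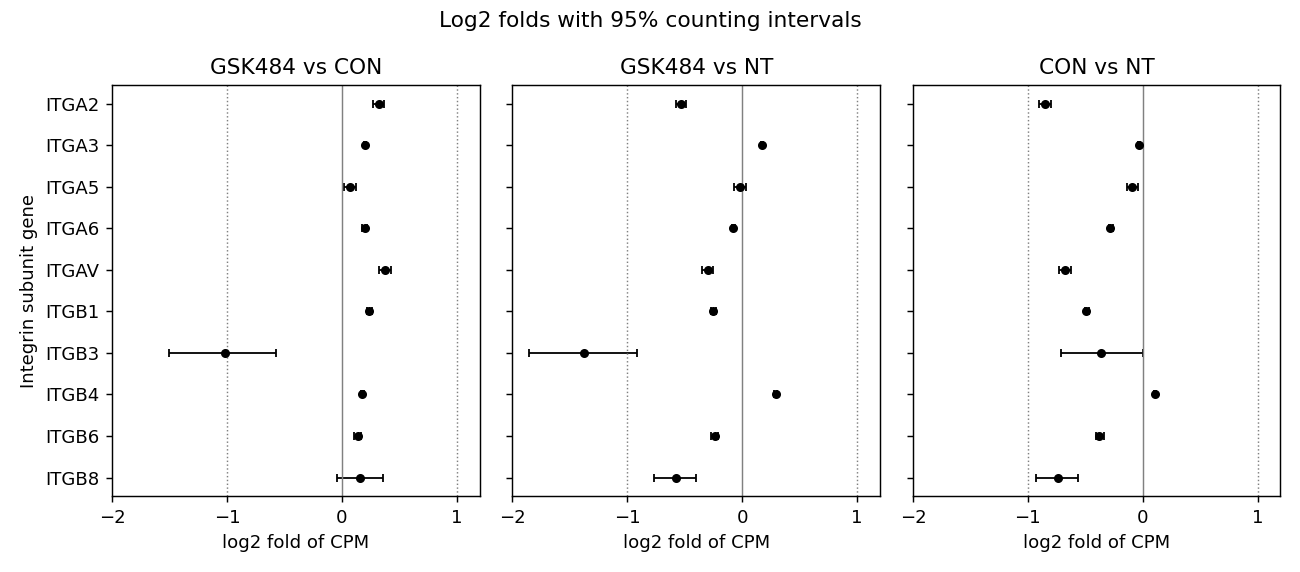
Log2 fold of CPM (horizontal axis) for each integrin gene in the 3 comparisons, with 95% exact binomial counting intervals; dotted lines mark a fold of 2. ITGB3 lies at -1.02 and -1.38 in the comparisons with GSK484, and ITGA2, ITGB8 and ITGAV lie lowest for CON against NT, at -0.85, -0.74 and -0.68.

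Both libraries at 72 h lay below the untreated one for most of these genes. In CON, 9 of the 10 were lower than in NT beyond counting error and ITGB4 was higher, where 29.7% of all 13221 genes were lower and 35.3% higher. The median log2 fold was -0.37, beside 0.03 over all genes. None of the 10 passed the rule of size in CON against NT, where 1.35% of genes were called lower and 0.333% higher. ITGA2 was the furthest down, at 121.9 CPM in NT and 67.5 in CON, 1.80-fold lower (log2 fold -0.85, interval -0.90 to -0.80). ITGB8 was at 7.99 CPM in NT and 4.77 in CON, 1.67-fold lower, and ITGAV at 89.4 and 56.0, 1.60-fold lower. ITGB1 was at a log2 fold of -0.49, ITGB6 at -0.38 and ITGA6 at -0.28. ITGA5 (-0.09) and ITGA3 (-0.03, interval -0.04 to -0.02) were nearly level between the libraries in CPM. In deposited TPM, ITGA5 was at -0.24 for CON against NT and 0.24 for GSK484 against CON, where the medians of all genes were -0.08 and 0.10. ITGB4 was at 2301 CPM in NT and 2484 in CON (log2 fold 0.11, interval 0.10 to 0.12).

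In GSK484, 7 of the 10 were lower than in NT and 2 higher beyond counting error, where 28.9% of all genes were lower and 27.9% higher. The median log2 fold was -0.24, beside 0.00 over all genes. After ITGB3, ITGB8 (log2 fold -0.58, interval -0.77 to -0.40) and ITGA2 (-0.53, interval -0.58 to -0.49) were the furthest below NT. ITGAV was at -0.30, ITGB1 at -0.25, ITGB6 at -0.24 and ITGA6 at -0.08. ITGB4, at 2809 CPM in GSK484, was 1.22-fold higher than in NT (log2 fold 0.29, interval 0.28 to 0.30), and ITGA3, at 1741 against 1547 CPM, was 1.13-fold higher. ITGA5 was within counting error (-0.02, interval -0.07 to 0.03). By CPM, 7 of the 10 genes had the order NT above GSK484 above CON, namely ITGA2, ITGA5, ITGA6, ITGAV, ITGB1, ITGB6 and ITGB8. ITGA3 ran GSK484, NT, CON, ITGB4 ran GSK484, CON, NT, and ITGB3 ran NT, CON, GSK484.

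The integrin genes differ in base composition, and the folds of protein-coding genes varied with it. ITGB8, ITGAV, ITGB1, ITGB6 and ITGA2 have longest transcripts of 37.8% to 40.2% GC, while ITGA3 has 61.3% and ITGB4 63.7%. Over protein-coding genes of at least 10 CPM, the 1415 under 40% GC had a median log2 fold of -0.36 for CON against NT, and the 1275 over 60% had 0.14. For GSK484 against NT the same medians were -0.17 and 0.13, and for GSK484 against CON they were 0.19 and -0.01. This composition trend was seen over these protein-coding genes and belongs to no integrin in particular, and the integrin folds did not all follow it. For GSK484 against CON, ITGA3 (0.20) and ITGB4 (0.18) lay above ITGB6 (0.14) and ITGB8 (0.16). A smooth curve was fitted to the folds of 8874 protein-coding genes of at least 10 CPM, with GC content and effective length as inputs. The curve was then subtracted from each integrin fold. ITGB3 and ITGB8 lie under 10 CPM and so outside the genes used for the fit. Subtraction takes the trend as shared by all genes, and the part of composition in any single fold was not tested.

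**Figure D3:**
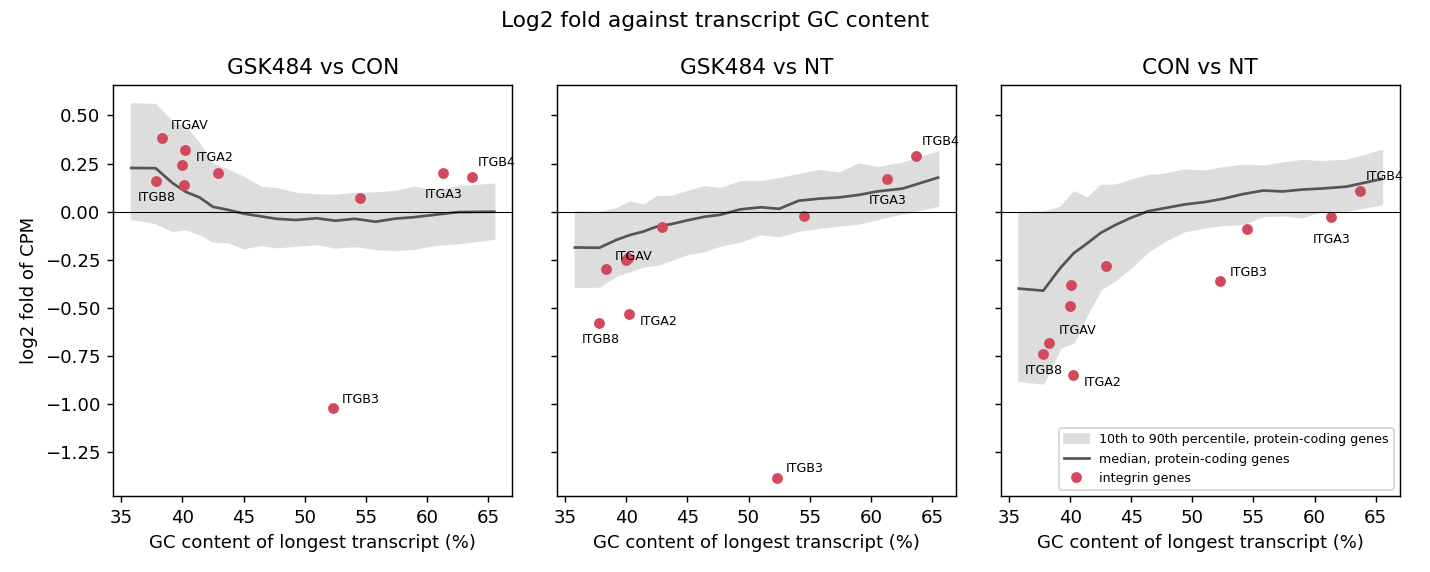
Log2 fold of CPM against the GC content of the longest transcript (%), with the median and the 10th to 90th percentile of protein-coding genes of at least 10 CPM in 20 bins, and the 10 integrin genes as points. For CON against NT, ITGA2 (-0.85), ITGB3 (-0.36), ITGA5 (-0.09) and ITGA3 (-0.03) lie below the band and the other 6 within it, ITGAV at -0.68 and ITGB8 at -0.74; ITGB3 and ITGB8 are under 10 CPM, and the counting interval of ITGB3, -0.713 to -0.000765, spans the band's edge.

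With the trend removed, CON and NT lay closer for most of the genes. ITGB6 had a log2 fold of -0.01 (interval -0.04 to 0.02), ITGA6 of 0.00 and ITGB4 of -0.01, where they had been at -0.38, -0.28 and 0.11. ITGA2 was still at -0.42 (interval -0.46 to -0.37) and ITGB8 at -0.31 (-0.50 to -0.13), followed by ITGAV at -0.18 and ITGB1 at -0.15. ITGB3 was at -0.31 with an interval of -0.67 to 0.05, which includes no difference. Then 7 of the 10 were lower and 0 higher beyond counting error, where 26.1% of genes were lower and 27.3% higher. The 7 include very small differences on many reads, ITGB4 at -0.01 (interval -0.02 to -0.00) and ITGA3 at -0.06 (-0.07 to -0.05). The median of the 10 was -0.11.

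Against NT, GSK484 had ITGB8 at -0.38 (interval -0.57 to -0.20) and ITGA2 at -0.32 (-0.37 to -0.28) once the trend was removed, and ITGA6 turned from -0.08 to 0.07. There 6 of the 10 were lower and 3 higher, where 22.3% of genes were lower and 23.9% higher. Against CON, ITGA2 came to 0.09, ITGAV to 0.11 and ITGB1 to 0.07, and ITGB6 turned from 0.14 to -0.05, while ITGA3 (0.16) and ITGB4 (0.17) moved by 0.04 or less. ITGB8 went from 0.16 to -0.07, within counting error both times. There 7 were higher and 2 lower, where 26.1% of genes were higher and 25.4% lower. ITGB3 barely moved, at -1.04 against CON and -1.35 against NT.

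**Figure D4:**
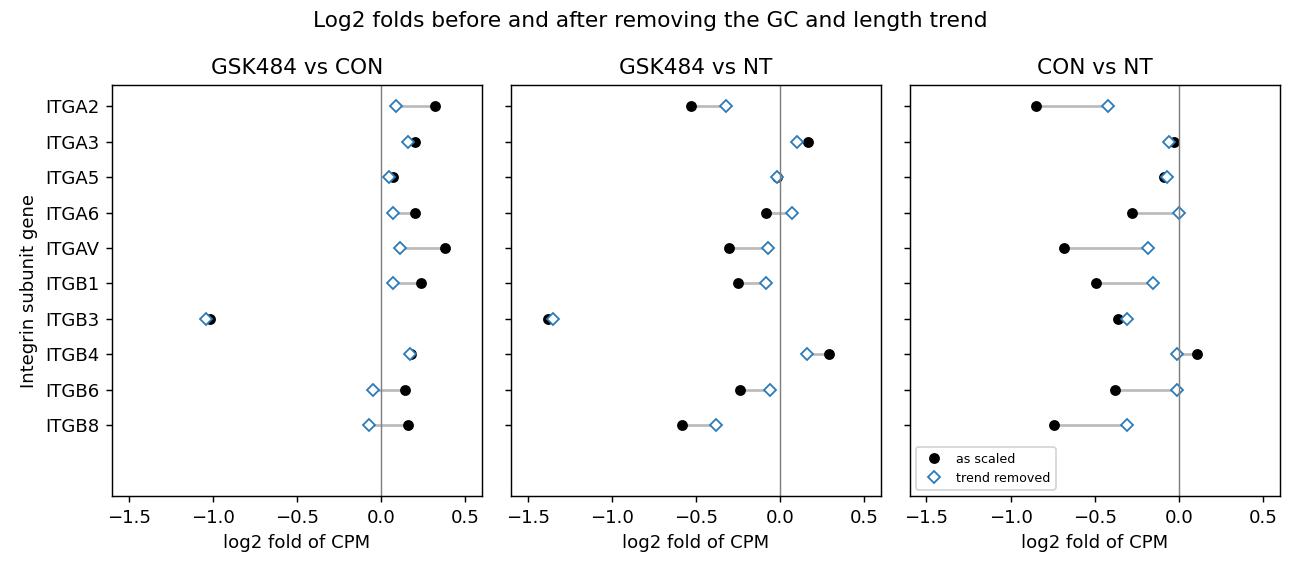
Log2 fold of CPM for each integrin gene as scaled (filled circles) and with the GC and length trend removed (open diamonds) in the 3 comparisons. For CON against NT, ITGA2 moves from -0.85 to -0.42 and ITGB6 from -0.38 to -0.01, while ITGB3 stays near -1.04 and -1.35 in the comparisons with GSK484.

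ITGA2, ITGAV and ITGB8 had the largest differences between CON and NT, and ITGB6 lost its difference with the trend removed, so the 250 bases before their RefSeq start (GRCh38.p14, used for sequence only) are shown for comparison. Promoters of 7 of the 10 genes were in the RefSeq table; ITGA3, ITGB3 and ITGB4 had none there. Capitals mark the GC box GGGCGG on either strand, a site bound by SP1-family factors. The AP-1 motif TGANTCA, which reads the same on both strands, was also searched and would be in capitals too. They lie at chr5:52989102-52989351 on the + strand (ITGA2), chr2:186589806-186590055 on the + strand (ITGAV, the first of 2 listed starts), chr7:20330650-20330899 on the + strand (ITGB8) and chr2:160200273-160200522 on the - strand (ITGB6), each written 5′ to 3′.
ITGA2: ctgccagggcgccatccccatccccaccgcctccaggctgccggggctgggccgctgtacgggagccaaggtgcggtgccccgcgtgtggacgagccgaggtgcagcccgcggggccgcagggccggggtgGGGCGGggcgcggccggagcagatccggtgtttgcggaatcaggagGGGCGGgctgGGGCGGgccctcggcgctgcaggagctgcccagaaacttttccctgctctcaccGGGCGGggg
ITGAV: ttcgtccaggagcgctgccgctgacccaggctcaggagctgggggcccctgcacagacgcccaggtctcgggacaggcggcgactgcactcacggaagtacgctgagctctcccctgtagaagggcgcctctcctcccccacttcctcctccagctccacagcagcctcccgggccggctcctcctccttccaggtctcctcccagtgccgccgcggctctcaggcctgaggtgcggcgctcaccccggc
ITGB8: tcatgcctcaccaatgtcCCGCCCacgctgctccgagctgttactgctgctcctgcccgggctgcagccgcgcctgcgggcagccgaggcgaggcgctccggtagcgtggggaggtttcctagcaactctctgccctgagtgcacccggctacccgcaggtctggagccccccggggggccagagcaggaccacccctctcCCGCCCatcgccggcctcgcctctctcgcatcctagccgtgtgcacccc
ITGB6: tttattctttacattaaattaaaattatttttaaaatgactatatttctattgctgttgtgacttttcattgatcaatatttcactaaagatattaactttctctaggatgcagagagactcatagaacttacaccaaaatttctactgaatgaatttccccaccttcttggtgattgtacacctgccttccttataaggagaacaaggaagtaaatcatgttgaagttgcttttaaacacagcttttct

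ITGA2 had 4 GC boxes in this window, ITGB8 had 2, and ITGAV and ITGB6 had 0, where 42.6% of 35116 RefSeq promoter windows of the same length held at least 1. The AP-1 motif was in none of these 4 windows and in 6.57% of all. The GC content of the windows was 76.4% for ITGA2, 70.8% for ITGAV, 71.2% for ITGB8 and 30.0% for ITGB6, with a median of 58.0% over all windows. The window before the second listed start of ITGAV, not printed, had 40.8% GC and 0 GC boxes. Among the other windows not printed, ITGB1 had 3 GC boxes before its first listed start and 0 before its second, and ITGA5 had 1. ITGA6, whose fold for CON against NT also came to 0.00 with the trend removed, had 0 before its first start and 3 before its second. A match of letters is a description of the sequence and not a binding site.

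Read as possible partners, the transcript levels were uneven. ITGB4 exceeded ITGA6, its alpha partner, by 6.61-fold in NT, 10.6-fold in CON and 9.03-fold in GSK484 on the TPM scale. The effective length assigned to ITGB4 differed between libraries, at 2232 bases in NT, 1843 in CON and 2128 in GSK484, so the ratios carry that difference too. ITGA6 was assigned 5181, 5242 and 5249 bases in the same order, so the size of the excess also rests on these lengths. In CPM, which is not per length, ITGB4 and ITGA6 were at 2301 and 808 in NT, 2484 and 667 in CON and 2809 and 767 in GSK484. The log2 fold of ITGB4 for CON against NT was 0.27 in TPM and 0.11 in CPM. The partners of beta 1 among these genes that pair with no other beta subunit, ITGA2, ITGA3 and ITGA5, summed to 2.53 times the level of ITGB1 in NT, 3.62 times in CON and 3.45 times in GSK484.

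Among the partners of alpha v other than beta 1, ITGB5 had the highest level, at 148 TPM in NT, 142 in CON and 152 in GSK484. ITGB5, a vitronectin receptor chain, made up 69.5% to 75.7% of the summed level of ITGB3, ITGB5, ITGB6 and ITGB8. ITGB6 made up 29% of it in NT, 23.4% in CON and 25.1% in GSK484. ITGB8 made up 1.23%, 0.786% and 0.874% in the same order. ITGB3 made up 0.221% in NT, 0.193% in CON and 0.0874% in GSK484, so in each library it was a minor partner at the transcript level. ITGB5 itself was level across the libraries, with log2 folds of CPM of -0.06 for GSK484 against CON (interval -0.08 to -0.03) and -0.03 against NT. In CPM, which is not per length, ITGB5 and ITGB6 lay nearer, at 265 and 229 in NT, 270 and 177 in CON and 260 and 194 in GSK484. The shares in TPM therefore depend on the effective lengths assigned.

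**Figure D5:**
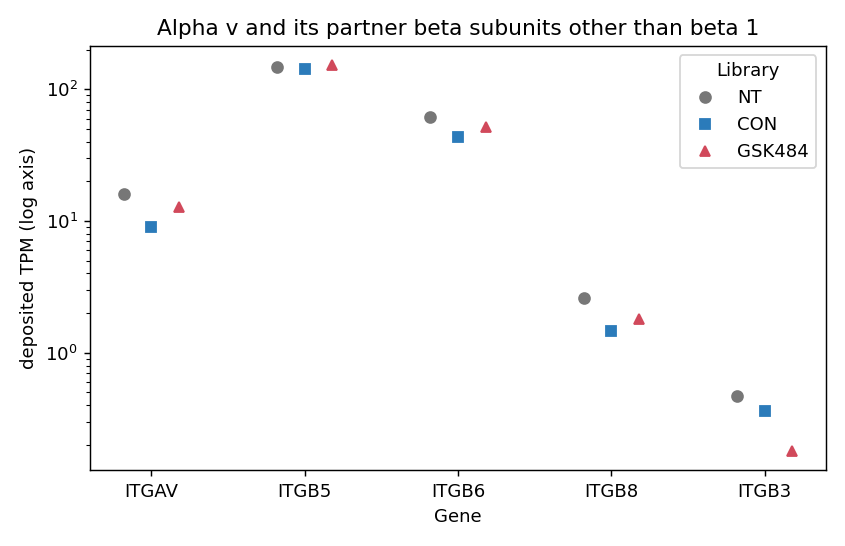
Deposited TPM (log axis) of ITGAV and of its beta partners other than ITGB1 in the NT, CON and GSK484 libraries, 1 point per library and no error bars. ITGB5 lies near 150 TPM in all 3 (148, 142 and 152), and ITGB3 lies lowest, at 0.47, 0.36 and 0.18.

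Of the 16 other integrin subunit genes, 6 were measured. ITGAE, the alpha subunit best known from intraepithelial T cells, ran from 20.3 CPM in NT to 22.4 in GSK484 and 23.3 in CON, while its beta partner ITGB7 stayed below 1 CPM. ITGA1, a collagen receptor subunit, was higher in GSK484 than in CON (log2 fold 0.38, interval 0.14 to 0.63) and was at -0.60 for CON against NT, or -0.11 with the trend removed. ITGB2, the leukocyte beta subunit, had 5.62 CPM in CON against 4.72 in GSK484 (log2 fold -0.25, interval -0.45 to -0.06). ITGAM was near the minimum of 1 CPM (log2 fold 0.47 for GSK484 against CON, with a lower bound of 0.00). Reads of ITGA1 and ITGB2 were partly divided with other genes. ITGA10, the last measured, was within counting error in all 3 comparisons. ITGA8 and ITGAD had a count of 0 in every library.

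Laminin and collagen ligands were on the higher side in GSK484 against CON: of 13 measured genes, 8 were higher and 0 lower beyond counting error, and the median was 0.12 on the log2 scale. Here and for the lists that follow, the shares over all genes were 27.9% higher and 26.4% lower, and nothing is read from a list whose share lay near them. LAMB3, a laminin beta chain, was at 0.24 and LAMA3, a laminin alpha chain, at 0.23. Against NT, LAMB3 was at 0.26, while LAMA3 was at -0.08. Of 16 measured ligands of the RGD and alpha v type, 7 were higher and 2 lower, with a median of 0.06. L1CAM, a cell adhesion molecule that integrins bind, had 37.8 CPM for NT, 38.5 for CON and 49.8 for GSK484, a log2 fold of 0.37 over CON. LTBP1, which tethers latent TGF-beta, was at 0.26 and CCN2, a matricellular growth factor, at -0.27. FN1, the fibronectin gene, ran level, between 29.1 and 29.4 CPM, and VTN, the vitronectin gene, had a count of 0 in every library.

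Of 4 measured hemidesmosome partners, 3 were higher and 1 lower in GSK484 against CON, with a median log2 fold of 0.15. DST, which links beta 4 to keratin filaments, was highest in NT at 280 CPM, followed by GSK484 at 206 and CON at 117. Its log2 fold was 0.81 for GSK484 against CON and -1.25 for CON against NT, or 0.64 and -0.92 with the trend removed. PLEC, the other linker, had 816 CPM for NT, 895 for CON and 1059 for GSK484 (0.24 against CON), and CD151, a tetraspanin partner of laminin-binding integrins, was at -0.09.

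Of 19 measured genes that act on the integrin tail, 11 were higher and 3 lower in GSK484 against CON, with a median of 0.15. KRIT1, which binds the integrin inhibitor ITGB1BP1, was at 0.37 and FLNA, an actin crosslinker that competes with talin, at 0.36, while ITGB1BP2 was at -0.59 on a level of 0.72 CPM. With the trend removed, KRIT1 was at 0.21, FLNA at 0.33 and ITGB1BP2 at -0.46. Of 31 measured adhesion adaptors and kinases, 12 were higher and 10 lower, with a median of 0.01. The SRC-family kinase gene YES1 was at 0.62, or 0.37 with the trend removed, TNS1, a tensin with divided reads, at 0.65, and NEDD9, a scaffold of the CAS family, at -0.31. Of 15 measured tetraspanins and other surface partners, 8 were higher and 6 lower, with a median of 0.02. LGALS3, a galectin that crosslinks integrin sugars, was at -0.41, CD82 at 0.26 and CD44 at 0.16. Of 17 measured integrin trafficking genes, 5 were higher and 7 lower, with a median of -0.01. RASA1, which promotes beta 1 recycling, was at 0.32, VPS35 at 0.25 and RAB21, which binds alpha subunit tails, at 0.24. With the trend removed they were at 0.24, 0.13 and 0.04. For CON against NT the medians of the 9 lists ran from -0.19 (other alpha subunits, 4 measured) to 0.21 (other beta subunits, 2 measured), beside 0.03 over all genes.

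The genes with the profile most like that of ITGB3 were ranked by the Euclidean distance between log2 CPM values centred on each gene's mean. The ranking covered 7658 protein-coding genes with whole counts, over 3 libraries. ITPRID1 was nearest, with NT at 2.47 CPM, CON at 2.16 and GSK484 at 1.08 (distance 0.144). EGR2, an immediate early transcription factor gene, was at 1.04, 0.876 and 0.463 CPM (distance 0.157). DNAJC22 (distance 0.185), IFIT2, an interferon-induced gene (0.315), and EFNB3, an ephrin gene (0.325), followed. All 5 were at 4.09 CPM or less in every library, so their profiles, like that of ITGB3, rest on few reads.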

How the data were processed

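RNA was measured in 3 libraries, 1 each for NT, CON and GSK484. Per the labels' protocols, RNA came from a TRIzol extraction, a stranded kit for total RNA was used, and paired-end reads were 125 bp long. Per the submitters' processing notes, RSEM and hg19 were used; the RSEM version, aligner, annotation release and strand setting were not given in the sources used here. The authors deposited expected counts, estimated and unscaled, per the file headers. The authors also deposited TPM, scaled for effective length, per the file headers. Effective lengths came from the same tables, and FPKM was not used.

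Expected counts were scaled to CPM by TMM (edgeR 4.0.16, R 4.3.3) over genes of at least 1 CPM in a library before this scaling. The factors were 1.01 (NT), 0.98 (CON) and 1.01 (GSK484). After scaling, 13313 genes had at least 1 CPM in a library. For log2 folds, 0.5 was added to each count in proportion to its library's size. Their 95% intervals were exact conditional binomial (Clopper-Pearson) on counts rounded to whole numbers, and PCR copies were not separable from molecules. No test between groups was possible. The trend on GC content (longest GENCODE 29 transcript, known for 97.2% of measured genes) and mean effective length used natural splines with 4 degrees of freedom each. The functions were tested on simulated data.

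The members and lists were chosen with earlier results of these data known. Symbols came from a gene name table and GENCODE 29, and 2 of 199 list entries, EPPK1 and PECAM1, were not analysed here. Named genes were the 10 integrins, up to 3 genes of each list whose log2 fold between GSK484 and CON was furthest from 0 with an interval excluding it, and the 5 profiles nearest to ITGB3; 1 gene that this rule names is not reported here. Further genes (ITGAE, ITGA10, ITGB7, ITGA2B, ITGA8, ITGAD, FN1, VTN and the markers at 0) were chosen after their values were seen. The markers CD68, CTSK, THY1 and COL1A1 were added in the same way. DESeq2 1.42.0 size factors were an alternative scaling.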

Additional observations from a re-analysis of the deposited data

How the results depend on the processing

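ITGB3 kept its direction in all 3 comparisons under total counts, DESeq2 size factors, totals without mitochondrial genes, deposited TPM, a prior count of 2, no CPM minimum, the GC and length trend and a 99% interval. A CPM minimum of 10 left out ITGB3 and ITGB8, so the count of genes lower in GSK484 than in CON went from 1 to 0, since fewer genes were counted. With the GC and length trend removed that count was 2, the count higher in CON than in NT went from 1 to 0, and 4 folds that had been beyond counting error changed sign: ITGB6 for GSK484 against CON (-0.05), ITGA6 for GSK484 against NT (0.07) and for CON against NT (0.00), and ITGB4 for CON against NT (-0.01). With deposited TPM the median of all genes was 0.10 for GSK484 against CON and -0.08 for CON against NT, and the integrin medians were 0.28 and -0.45. Folds of genes other than ITGB3 moved outside their main counting intervals in 20 cases with deposited TPM. They did so in 10 cases with total counts, in 6 with DESeq2 size factors and in 19 with the trend removed, besides the 4 sign changes. The count lower in CON than in NT went from 9 to 8 with no CPM minimum and with a 99% interval. ITGB3 had 56 reads in GSK484, and replicate spread could not be measured. No paired analysis was possible because each group had 1 library.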
